A study of Gallus gallus with 12 samples.

Results

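Chicken retinoblastoma lines that carry human MYCN with the T58A exchange (MYCN-T58A DMC cells, lines DMC4, DMC5 and DMC6) were compared with lines that carry the unchanged human MYCN sequence (old DMC cells, lines DMC1, DMC2 and DMC3). The members are the 6 of the 12 sequenced libraries whose labels name these groups, and 15284 genes with enough reads entered the test. All 6 lines came from White Leghorn retina that had been electroporated in the egg at embryonic day 3.5 with an integrating piggyBac vector and had then grown in suspension for more than 200 days, in medium with 10% serum. The vector joins the MYCN sequence to green fluorescent protein (GFP) behind the CAG promoter, which is active in most cell types. Both groups therefore share the electroporation, the vector, GFP and the long culture, and their group labels differ in the MYCN variant. Their column headings differ too, as those of the MYCN-T58A lines name media and those of the old lines do not. The other 6 libraries, 3 young DMC lines under 4 weeks in culture (DMC8, DMC9 and DMC10) and 3 retinas of embryonic day 14 (E14) without electroporation, served as reference. Each line is 1 culture with 1 library. The p values rest on a spread pooled within all 4 groups, the retinas included, and not on the compared lines alone. Retinas varied less than lines. Between retinas 6.58% to 8.05% of the tested genes differed by 1 or more on the log2 scale, against 31.5% to 43.5% between MYCN-T58A lines. The labels give neither the sex nor the embryo behind a line.

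MYCN is a transcription factor of the MYC family that binds DNA together with MAX and drives genes of growth and division. The threonine exchanged in T58A lies in the phosphodegron of the protein, where phosphorylation by GSK3 lets the ubiquitin ligase subunit FBXW7 bind and sends MYC proteins to the proteasome. An alanine at this place cannot be phosphorylated. The exchange acts on the protein, and gene counts show neither the exchange itself nor the amount of protein.

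The 6 libraries held 20984957 to 31232917 recovered reads, and their values are given as normalized counts, which are reads scaled to the same effective library size. Values in parentheses just before a standard error or an adjusted p are log2 differences, MYCN-T58A minus old lines, and are positive where the MYCN-T58A lines were higher. DMC5 stood apart from the other MYCN-T58A lines. Over the log2 levels of the 15284 genes, DMC5 correlated with DMC3 of the old group at r = 0.958 and with DMC4 and DMC6 of its own group at 0.881 and 0.896, whereas DMC4 and DMC6 correlated with each other at 0.923. The median gene differed by 0.36 on the log2 scale between DMC5 and DMC3, by 0.61 between DMC4 and DMC6 and by 0.82 between DMC4 and DMC5. These points share genes and scaling and are a description. In the closest pair of these lines, DMC2 and DMC3, 2633 genes (17.2%) still differed by 1 or more on the log2 scale, so that each library counts as its own sample. Results that turn on DMC5 are given with and without it. DMC5 was set apart by these same expression values. Every p without it is therefore a description of DMC4 and DMC6 and no independent support. The column of DMC6 is headed with the name of another medium than those of DMC4 and DMC5, while the growth protocol names 1 medium for all lines. A part of the medium in the differences was not tested.

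The transgene was present in all 6 lines and lowest in DMC5. Human MYCN (hMYCN) had normalized counts of 249884, 258300.0 and 313643 in DMC1, DMC2 and DMC3 and of 196370.0, 61789 and 200360.0 in DMC4, DMC5 and DMC6. Every MYCN-T58A line was below every old line, and DMC5 was at 22.6% of the old mean against 71.7% and 73.1% in the other lines. The difference did not pass the test (-1.02, standard error 0.38, limma adjusted p = 0.180, exact two-sided permutation p = 0.1, the smallest that 3 against 3 can give). Without DMC5 it was -0.46 (standard error 0.20, limma adjusted p = 0.124). GFP moved in parallel, at 365756, 412637 and 478530.0 in the old lines and 311889, 98287 and 306644 in DMC4, DMC5 and DMC6 (-0.98, standard error 0.40, limma adjusted p = 0.215). A part of the low transgene level in the place of DMC5 among the lines was not tested. The ratio of GFP to hMYCN counts stayed between 1.46 and 1.60 in all 9 DMC lines, and E14 retina held 0 reads of hMYCN.

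**Figure D1:**
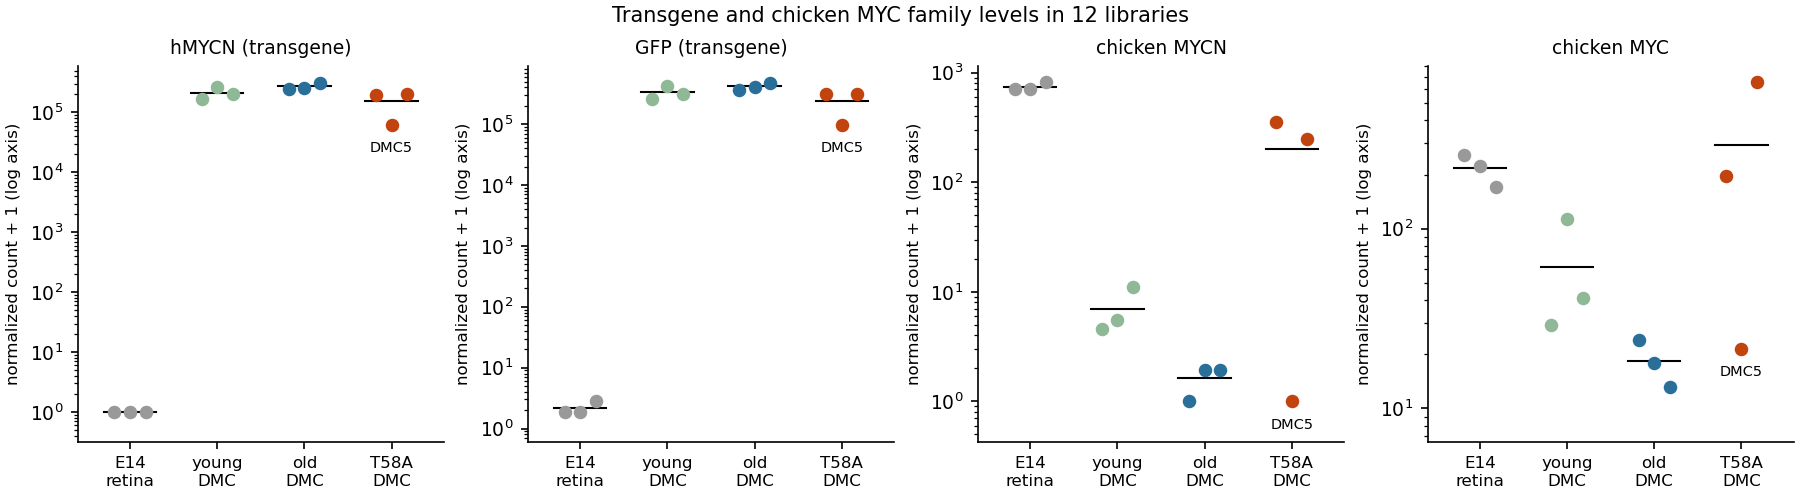
Normalized counts plus 1, on log axes, of the hMYCN and GFP transgenes and of chicken MYCN and MYC in E14 retina, young, old and MYCN-T58A DMC lines; points are libraries and bars are group means. DMC5 is the lowest MYCN-T58A line for hMYCN (61789) and lies with the old lines for chicken MYCN (0) and MYC (20.3), where DMC4 and DMC6 are at 354 and 245 and at 195 and 658.

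The chicken's own MYC genes differed inside the MYCN-T58A group. Chicken MYCN, which E14 retina expressed at 708 to 815, stood at 0, 0.939 and 0.939 in the old lines and at 354, 0 and 245 in DMC4, DMC5 and DMC6. DMC4 and DMC6 were thus high, and DMC5 was as empty as the old lines. MYC showed 23.1, 16.9 and 12.2 in the old lines and 195, 20.3 and 658 in DMC4, DMC5 and DMC6. Neither passed over 3 lines (MYCN 4.83, standard error 1.69, limma adjusted p = 0.161; MYC 2.97, standard error 1.00, limma adjusted p = 0.152), and both did without DMC5 (MYCN 7.57, limma adjusted p = 7.58e-05; MYC 4.33, limma adjusted p = 0.00213). Human and chicken MYCN are similar in sequence, and a part of misassigned transgene reads in the chicken counts was not tested. The hMYCN counts were 249884, 258300 and 313643 in the old lines and 196370, 61789 and 200360 in DMC4, DMC5 and DMC6, so that the lines with most hMYCN had chicken MYCN at 0.939 or less.

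With all 3 MYCN-T58A lines, 6 of the 15284 genes (0.0393%) were differentially expressed (DE), which required an adjusted p no higher than 0.05 together with a log2 difference of 1 or more in either direction. Of these, 5 were higher in MYCN-T58A lines (0.0327%) and 1 was lower (0.00654%). In all 6 the groups did not overlap, DMC5 included. In the fit of the 6 compared libraries alone 3 of these genes passed. In the fit of the 9 DMC libraries, which leaves out the retinas, 0 passed.

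The gene that fell was CCDC27, which encodes a coiled-coil domain protein. Its normalized counts were 143, 135 and 117 in the old lines and 4.46, 21.5 and 9.19 in DMC4, DMC5 and DMC6 (-3.62, standard error 0.49, limma adjusted p = 0.0352). The 6 libraries of young DMC cells and E14 retina lay between 123 and 184, on the side of the old lines. In the fit of the 6 compared libraries alone CCDC27 did not pass (limma adjusted p = 0.330).

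Of the 5 genes that rose, Y-LEC1 and YLEC8 bear names of the C-type lectin-like genes of the chicken MHC-Y region, a second histocompatibility region that lies on chromosome 16 beside the ribosomal genes. YLEC8 had 0, 0 and 0.939 in the old lines and 1116, 938 and 1786 in DMC4, DMC5 and DMC6, which is at least 451-fold higher when the old lines are set to 3 reads each (9.95, standard error 1.41, limma adjusted p = 0.0431). Among the references it was high in young DMC8 and DMC9 (174 and 42.2) and at most 0.888 in DMC10 and E14 retina. Y-LEC1 had 0, 0 and 2.82 against 43.5, 53.8 and 42.5 (at least 16.4-fold higher, 4.92, standard error 0.61, limma adjusted p = 0.0231) and at most 0.899 in the 6 reference libraries. Y-LEC1 did not pass in the 6 compared libraries alone (limma adjusted p = 0.109). MHC-Y lectins form a family of near-identical copies that varies between birds, so that the assignment of reads to 1 member is uncertain.

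The other genes that rose have no name in the table. ENSGALG00000042449 was at 0 in the 3 old lines and at 577, 564 and 764 in DMC4, DMC5 and DMC6 (at least 224-fold higher, 9.30, standard error 1.02, limma adjusted p = 0.0118). ENSGALG00000052376 was likewise at 0 against 253, 204 and 667 (at least 132-fold higher, 8.35, standard error 0.93, limma adjusted p = 0.0118). ENSGALG00000051054 had 1.93, 1.88 and 2.82 against 173, 523 and 103 (at least 93.8-fold higher, 6.06, standard error 0.82, limma adjusted p = 0.0352). It did not pass in the 6 compared libraries alone (limma adjusted p = 0.0615). E14 retinas, at 34.6 to 44.9, and young DMC8, DMC9 and DMC10, at 4.71, 50.3 and 38.8, were also above the old lines for this gene. In the same young lines ENSGALG00000042449 stood at 0, 29.7 and 3.32 and ENSGALG00000052376 at 0, 14.4 and 0. In E14 retina the former was at most 3.64 and the latter at 0. YLEC8, Y-LEC1, ENSGALG00000042449 and ENSGALG00000052376 would not have reached the minimum of 10 reads in 3 libraries without the MYCN-T58A lines, so that a difference was built into their passing the filter.

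**Figure D2:**
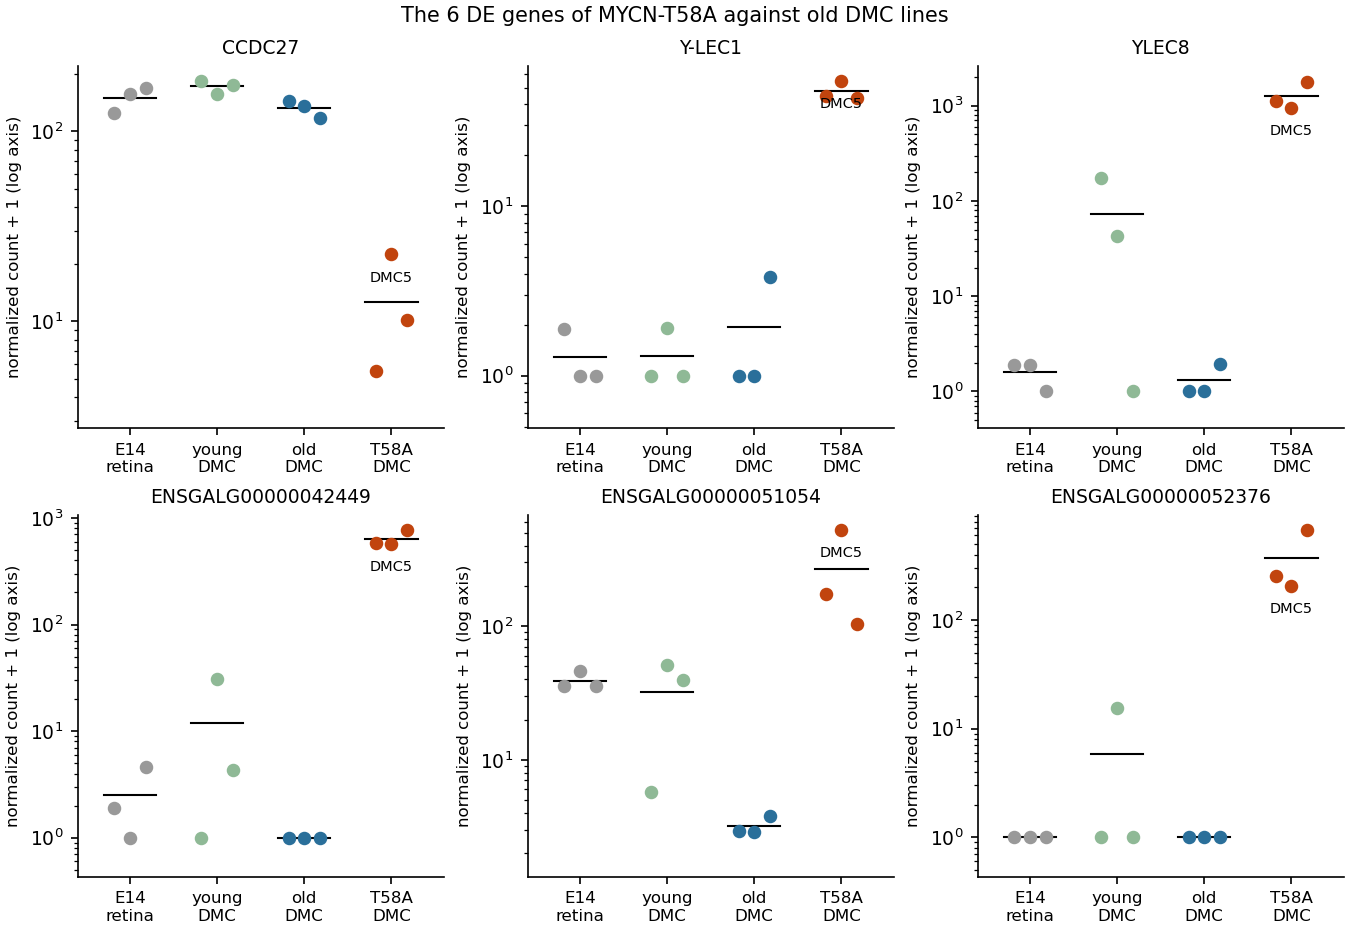
Normalized counts plus 1, on log axes, of the 6 DE genes in E14 retina, young, old and MYCN-T58A DMC lines; points are libraries and bars are group means. The 3 MYCN-T58A lines lie below the 3 old lines for CCDC27 (4.46 to 21.5 against 117 to 143) and above them for the 5 others, with DMC5 among its group in each panel.

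Genes of chromosome W, which only female birds carry, were read in the old lines and nearly absent from the MYCN-T58A lines. Of 25 tested genes placed on W, 23 were below every old line in all MYCN-T58A lines, where over all genes tested this held for 7.83%. Among the W genes 20 had at most 3 reads in each MYCN-T58A line and more than 3 in each old line. HNRNPKL and ENSGALG00000040263, at least, reached the read filter only through the old lines, so that a difference is built into these counts. Over the 24 W genes other than NEDD4L, the old lines held 54053, 55716 and 75305 reads, and DMC4, DMC5 and DMC6 held 75, 36 and 10. Young DMC10 and 1 E14 retina were nearest to the old lines, with 46760 and 49283 reads, below each of them, and young DMC8 and DMC9 lay between, with 302 and 1816. HINTW, a W gene of the HINT family present in many copies, had 16533, 19852 and 35726 in the old lines and 0, 14.3 and 0 in DMC4, DMC5 and DMC6.

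In the fit of 12 libraries 0 of 25 W genes passed (limma, 24 with an unadjusted p under 0.05), and E14 retina and young DMC cells, which enter the shared spread, each mix libraries with many and with few W reads (HINTW -13.16, standard error 4.00, limma adjusted p = 0.129). In the 6 libraries alone 35 genes were DE (0.229%), 3 higher (0.0196%) and 32 lower (0.209%). The 32 lower genes consisted of 22 W genes, HINTW (limma adjusted p = 0.00914), ATP5F1AW (0.00757) and HNRNPKL (0.00235) among them, and 10 genes with no placement. HNRNPKL would not have reached the read filter without the old lines. The same held for ENSGALG00000040263, another of the W genes with the highest levels. Outside the old lines, W reads were many only in DMC10 and an E14 retina. Further W genes can thus have passed the filter only through the old lines, so that a difference can be built into the counts of W genes. ATP5F1AW, the W copy of an ATP synthase subunit, stood at 8819.9, 7536 and 8667 against 0, 11.9 and 2.30. The 3 higher genes were YLEC8, ENSGALG00000042449 and ENSGALG00000052376. NEDD4L, a ubiquitin ligase gene placed on W in the annotation used, did not follow the W genes: it had 1109, 1702 and 1124 in the old lines and 3062, 1895 and 4696 in DMC4, DMC5 and DMC6.

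Genes on chromosome Z, of which male birds carry a pair and females 1, were shifted the other way. Over 577 Z genes the median log2 fold change was 0.49, against -0.04 over 11738 other placed genes. The median Z gene was higher than the old mean by 0.50, 0.58 and 0.48 in DMC4, DMC5 and DMC6, and the old lines themselves lay at 0.05, -0.06 and 0.02. The shift was not particular to the MYCN-T58A lines. It was 0.50 and 0.45 in young DMC8 and DMC9 and 0.69 and 0.68 in E14 retinas 1 and 2. In DMC10 and E14 retina 3, the references with many W reads, it was -0.16 and 0.16. In 175 Z genes (30.3%) all MYCN-T58A lines were above all old lines, where over all genes tested this held for 1129 (7.39%), and in 16 they were below, where over all genes it held for 1196 (7.83%). Of the Z genes 0 passed over 3 lines (limma, 206 with an unadjusted p under 0.05). Presence of W and the MYCN variant run together in these 6 lines and cannot be told apart, for W and Z genes or for any other gene.

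**Figure D3:**
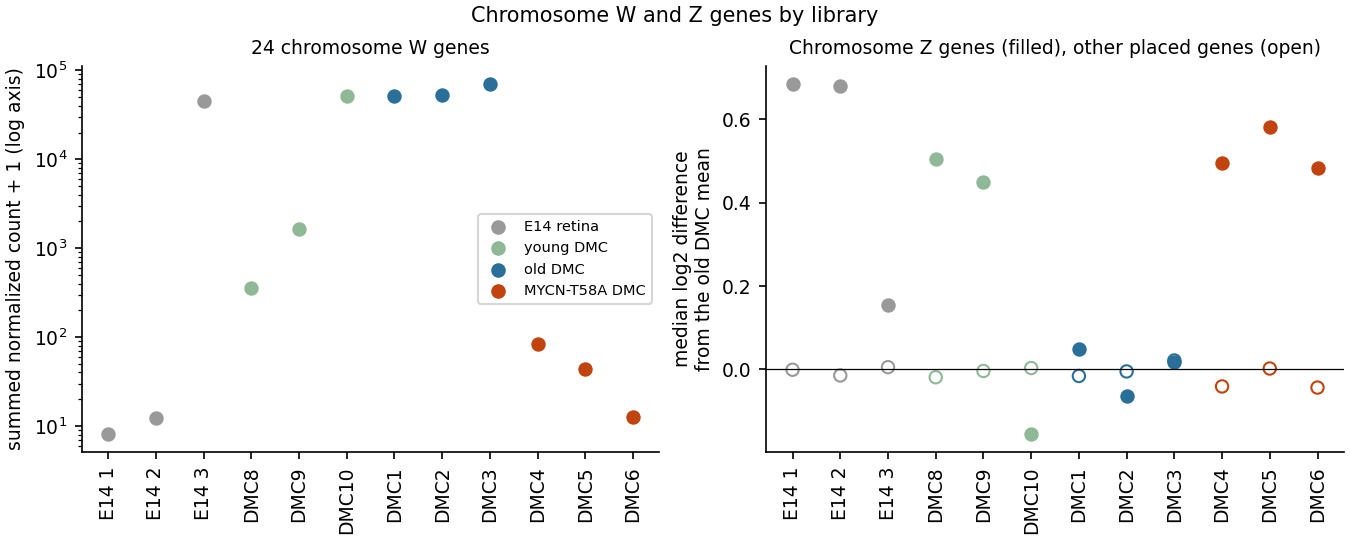
Left, summed normalized count plus 1 (log axis) of 24 chromosome W genes in each of the 12 libraries; right, median log2 difference from the old DMC mean over chromosome Z genes (filled) and other placed genes (open). W genes are high in DMC1 to DMC3, DMC10 and E14 retina 3 and near the floor in DMC4 to DMC6, where the median Z gene is 0.48 to 0.58 above the old mean.

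Just outside the threshold stood genes with all 3 MYCN-T58A lines on 1 side of the old lines. The nearest named genes, ROBO1, CA9 and JAM3, shared an adjusted p of 0.0679, and the nearest inside were YLEC8, CCDC27 and Y-LEC1 at 0.0431 to 0.0231. ROBO1, a receptor for SLIT guidance cues, had 381, 254 and 159.6 in the old lines and 1569, 1153 and 1588 in DMC4, DMC5 and DMC6 (2.51, standard error 0.39). JAM3, a junctional adhesion molecule, had 558, 428 and 551 against 3761, 1149 and 3431 (2.27, standard error 0.36), and CA9, a cell surface carbonic anhydrase induced by low oxygen, 255, 319 and 456 against 32.3, 34.7 and 3.45 (-4.26, standard error 0.68). In E14 retina ROBO1 and JAM3 were higher still, at 4556 to 5236 and 6779 to 7238, so that the MYCN-T58A lines lay between old lines and retina.

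Further genes of this kind were chosen after their values were seen, from those with a small p whose groups did not overlap. They are a selection and not the top of a ranking. Others, such as FAM8A1 and DHRS4, had a smaller p than CA2 and KCNH8 and are not described. LHX6, a LIM homeobox factor, had 6.74, 0.939 and 1.88 against 73.6, 27.5 and 37.9 (3.63, limma adjusted p = 0.0679). CERS4, a ceramide synthase, had 117, 84.5 and 60.1 against 10.0, 4.78 and 0 (-4.41, limma adjusted p = 0.0679). CA2, a carbonic anhydrase of retinal glia and cones, had 1253, 463 and 590.4 against 8.92, 59.7 and 129.8 (-4.03, limma adjusted p = 0.0762), and KCNH8, a potassium channel, 532, 286 and 463 against 5.57, 70.5 and 26.4 (-4.14, limma adjusted p = 0.0762). KCNH8 was also low in young DMC8, DMC9 and DMC10, at 7.07, 2.70 and 9.97, and at 129 to 161 in E14 retina. The old lines were thus its high group. CHD1Z, the Z copy of a chromatin remodeller, had 1008, 1097 and 1168 against 4722, 2753 and 3732 (1.74, limma adjusted p = 0.0762). It was at 2247, 2080 and 1084 in young DMC8, DMC9 and DMC10 and at 2129 to 3606 in E14 retina. LHX6 would not have reached the read filter without the MYCN-T58A lines, so that a difference was built into its passing. None of these genes passed over 3 lines, and all of them did without DMC5, LHX6 with the limit just given. In all, 2325 genes (15.2%) did not overlap between the groups, and 3016 (19.7%) had an unadjusted p under 0.05.

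Leaving out DMC5 changed the comparison from 6 DE genes to 2620 (17.1%), 1193 higher (7.81%) and 1427 lower (9.34%), whereas leaving out any other single library gave 0 to 29. The 6 DE genes of the full fit were among the 2620. These calls compare DMC4 and DMC6 with the 3 old lines and use a spread pooled over all groups, so that they describe those 2 lines. DMC5 was singled out by the same values, so that genes in which it differs from DMC4 and DMC6 are favoured among the calls. In 1113 of the 2620 genes (42.5%) DMC5 lay within the range of the 3 old lines, in 426 (16.3%) it had moved by at least 1 on the log2 scale in the direction of the call, and in 269 (10.3%) by as much in the opposite direction.

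**Figure D4:**
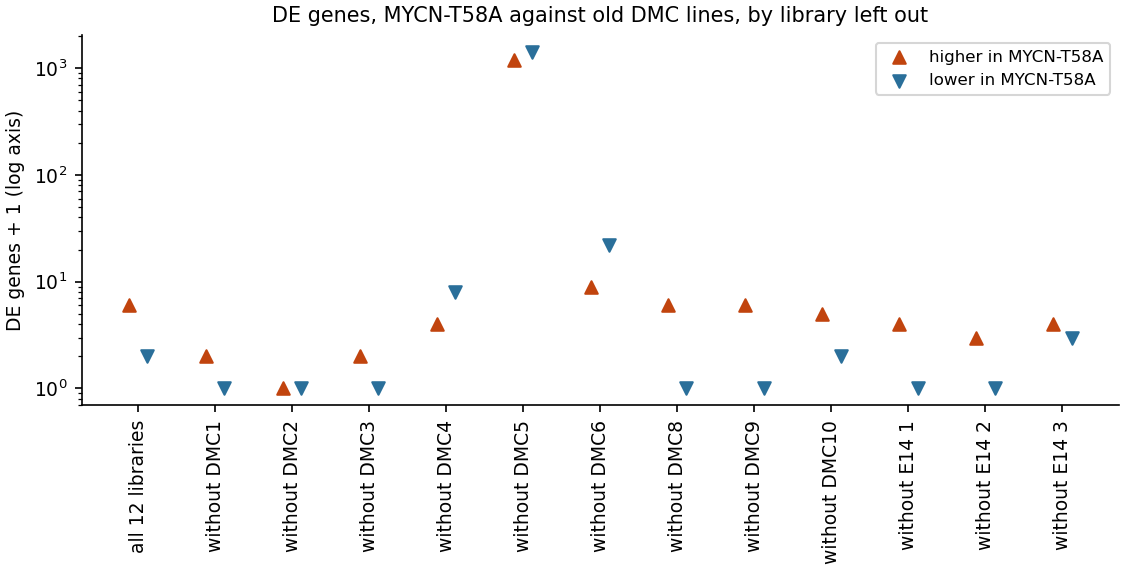
Number of DE genes plus 1 (log axis), higher (upward triangles) or lower (downward triangles) in MYCN-T58A lines, in the fit of all 12 libraries and with each library left out. All 12 libraries give 5 higher and 1 lower, and leaving out DMC5 gives 1193 and 1427.

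Gene lists were read by how many tested members were DE, with 1 entry per gene identifier, and a share near that over all genes, 7.81% higher and 9.34% lower without DMC5, is no result about a list. The same holds for members whose groups did not overlap. Over all genes 7.39% lay above every old line in all MYCN-T58A lines and 7.83% lay below. Members such as CRX and NRL were not analysed here. The MYC network and the machinery of MYCN turnover held no DE gene over 3 lines. Of 13 genes of the MYC family and MAX network 0 passed over 3 lines (limma, 3 with an unadjusted p under 0.05), with a median of 0.01 beside -0.05 over all genes. Without DMC5, MYCN and MYC were higher and MYCL lower. MAX, the obligate partner, had 735, 581 and 823 against 509, 1014 and 496, and FBXW7, which reads the phosphodegron, 454, 673 and 539.7 against 595, 575 and 783, with overlap in both. Of 24 genes of the phosphodegron and of MYCN turnover 0 passed over 3 lines (3 with an unadjusted p under 0.05, median 0.01), and without DMC5 1 was higher and 4 were lower. The higher one was USP36, a nucleolar deubiquitinase, and AURKA, a mitotic kinase that stabilises MYCN, was among the lower, at 1119.8, 1532 and 2520.2 against 642, 2896 and 874.

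Targets of MYC were described by 36 metabolic and nucleolar genes, of which 0 passed over 3 lines (limma, 9 with an unadjusted p under 0.05, median 0.08) and, without DMC5, 0 were higher and 5 lower (median -0.04). ENO1, a glycolytic enzyme, was lower in all 3 MYCN-T58A lines, with 167545, 291125 and 177960.0 against 44179.6, 158580.0 and 58120.5 (-1.47, limma adjusted p = 0.133). IMPDH2, of guanine nucleotide synthesis, was higher in all 3, with 12561, 14439 and 11951 against 26585, 15894 and 24143 (0.74, limma adjusted p = 0.111). The nucleolar genes MYBBP1A (4578, 4503 and 4472 against 6233, 6406 and 8552) and NOLC1 (6311, 7744 and 6296 against 18234, 8875 and 9589) also did not overlap and stayed under the fold change criterion. In all, 7 of the 36 genes lay above every old line in all MYCN-T58A lines and 1, ENO1, lay below, where over all genes 7.39% lay above and 7.83% below.

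By the median of the list, proliferation genes were lowest in DMC4 and DMC6 and highest in DMC5 among the compared lines. Of 37 tested, 0 passed over 3 lines (limma, 0 with an unadjusted p under 0.05, median -0.86) and 24 were lower without DMC5, with 0 higher (median -1.66). PCNA, the sliding clamp of DNA replication, had 4754, 5589 and 9949 in the old lines and 1319, 13422 and 2331 in DMC4, DMC5 and DMC6, so that DMC5 was above and the others below every old line (without DMC5 -1.87, standard error 0.31, limma adjusted p = 0.00318). MCM5, a subunit of the replicative helicase, had 1633, 2831 and 3997 against 363, 4402 and 548 (without DMC5 -2.56, standard error 0.34, limma adjusted p = 0.00104). MKI67, a marker of cycling cells, had 4082, 12376 and 10224 against 3261, 13126 and 3348 (without DMC5 -1.28, standard error 0.39, limma adjusted p = 0.0401). The summed level of the list ran from 75494 to 188644 in the old lines and stood at 31351, 205122 and 57970 in DMC4, DMC5 and DMC6. The median difference from the old mean was -0.76, 0.10 and 0.63 in DMC1, DMC2 and DMC3. In DMC4, DMC5 and DMC6 it was -2.13, 0.79 and -1.01. The old line DMC1 was thus near DMC6, and DMC3 was near DMC5. In bulk RNA fewer cycling cells and less RNA of these genes per cell cannot be told apart.

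The E2F and RB genes, which gate entry into S phase, held no DE gene over 3 lines. Of 12 tested 0 passed over 3 lines (limma, 2 with an unadjusted p under 0.05, median -0.12), and 1, the repressor E2F8, was lower without DMC5, a share near that over all genes (9.34%). E2F1 had 1843, 5640.2 and 6849 against 908, 7201 and 2484, E2F3 658, 853 and 1007 against 641, 999 and 674, and RB1 1747, 1545 and 1651 against 1082, 1948 and 1728. E2F7, an atypical repressor, was the member whose groups did not overlap, at 46.2, 56.3 and 135 against 175, 279.6 and 223 (1.64, standard error 0.47, limma adjusted p = 0.120). Of 16 Myc-regulated cell cycle genes listed in the study 0 passed over 3 lines (3 with an unadjusted p under 0.05) and 5 were lower without DMC5, CCND2 and CDK2 among them. CDK6, the kinase partner of D cyclins, did not overlap, at 1906, 2824 and 2343 against 5774, 3084 and 3055, with a log2 difference of 0.70.

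Inhibitors of the cell cycle at the CDKN2A and CDKN2B loci were lower in every MYCN-T58A line. CDKN2A, which in mammals encodes inhibitors of CDK4 and MDM2, had 2411, 3152 and 1899 in the old lines and 729.9, 19.1 and 181 in DMC4, DMC5 and DMC6 (-4.13, standard error 1.09, limma adjusted p = 0.109), with DMC5 the lowest. CDKN2B had 629, 66.7 and 32.9 against 14.5, 0 and 10.3 (-4.33, standard error 1.29, limma adjusted p = 0.126). CDKN2B would not have reached the read filter without the old lines. Both lie on Z, and both were also lower in the young lines than in the old ones (CDKN2A at 228, 759 and 103). CDKN1A, the p21 inhibitor, overlapped, at 2274, 37.6 and 251 against 1263, 139 and 268. Of 32 genes of apoptosis and cell stress 0 passed over 3 lines (limma, 8 with an unadjusted p under 0.05, median 0.16), and without DMC5 7 were higher and 2 lower. The death receptor FAS had 27.0, 10.3 and 5.63 against 456, 10.8 and 122, and the stress gene SESN2 387, 1376 and 206 against 4892, 274 and 5462. BAK1, a pore former of the mitochondrial pathway, was higher in all 3 lines, at 454, 534 and 602 against 1673, 746 and 1147 (1.10, limma adjusted p = 0.120). Of the 32 genes 2 lay above every old line in all MYCN-T58A lines and 3 lay below. These shares are near those over all genes, 7.39% and 7.83%, and are no result about the list.

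Cone genes and factors of photoreceptor fate had the lowest medians among the gene lists. Of 17 cone phototransduction genes 0 passed over 3 lines (limma, 9 with an unadjusted p under 0.05, median -2.37), and 9 were lower without DMC5 with 0 higher (median -2.62). The cone and rod lists follow the compilation of phototransduction components in the study. ARR3, the cone arrestin that ends opsin signalling, had 1465, 1930.5 and 1009 in the old lines and 349, 136 and 150.4 in DMC4, DMC5 and DMC6 (-2.87, standard error 0.50, limma adjusted p = 0.0762), and the young lines were at 6817 to 10123. RD3, which restrains guanylate cyclase, and GUCA1B, which activates it, were also lower in every MYCN-T58A line. RD3 had 3039.8, 1141 and 1435 against 93.6, 299.9 and 639.7 (-2.70, limma adjusted p = 0.0830), and GUCA1B had 350.5, 41.3 and 123 against 15.6, 13.1 and 1.15 (-3.95, limma adjusted p = 0.0963). In these 3 genes DMC5 went with DMC4 and DMC6.

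In other cone genes DMC5 stayed with the old lines. GNAT2, the cone transducin alpha subunit, had 1348, 217 and 234 against 1.11, 498 and 25.3 (without DMC5 -5.78, standard error 0.99, limma adjusted p = 0.00353), and the red opsin OPN1LW 225, 2461 and 406 against 13.4, 311 and 39.0 (without DMC5 -4.67, standard error 0.84, limma adjusted p = 0.00439). GUCA1A had 553, 31.9 and 1102 against 1.11, 109 and 49.4 and did not pass in either fit. The green opsin OPN1MSW was high in DMC1 alone, at 2673 beside 1.88 and 0 in the other old lines and 1.11, 0 and 4.59 in DMC4, DMC5 and DMC6. The cone phosphodiesterase genes PDE6C (2461, 619 and 654 against 189, 766 and 217) and PDE6H (12591, 3627 and 6854 against 5118, 8363 and 6801) overlapped, and PDE6H differed by -0.03 (standard error 0.59).

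Of 8 rod genes 0 passed over 3 lines (limma, 3 with an unadjusted p under 0.05, median -0.67), and PDE6B and GRK1 were lower without DMC5. PDE6B, a catalytic phosphodiesterase subunit, had 4142, 5390.5 and 15685 against 99.2, 1526 and 384 (-4.18, standard error 0.81, limma adjusted p = 0.0762; without DMC5 -5.17, limma adjusted p = 0.000767). All MYCN-T58A lines were below all old lines, DMC5 nearest to them. GNAT1, the rod transducin, was at or near 0 in all 6 lines (at most 1.93) and at 178 to 286 in E14 retina.

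Factors of photoreceptor fate and genes of the outer segment gave 0 DE genes of 32 over 3 lines (limma, 11 with an unadjusted p under 0.05, median -1.16) and 22 lower, 0 higher, without DMC5 (median -2.05). RXRG, a nuclear receptor of cones, had 16498, 13563 and 25836 against 1709.5, 31908 and 1312, and its partner THRB, which sets the red cone fate, 2074, 4349 and 4832 against 430.2, 7572 and 369.8. In both DMC5 was the highest of the 6 lines, and DMC4 and DMC6 were below every old line (without DMC5 RXRG -3.58, limma adjusted p = 7.58e-05; THRB -3.14, limma adjusted p = 0.000583). RBP3, the retinoid carrier between photoreceptors and pigment epithelium, had 30763, 14603 and 23058 against 226, 24229 and 1069 (without DMC5 -5.47, limma adjusted p = 0.000338). OTX2, the factor that starts photoreceptor fate, kept 9044, 12335 and 15335 against 3829, 17555 and 6657 (without DMC5 -1.24, limma adjusted p = 0.00989), and NR2E3, a repressor of cone genes in rods, 2873, 1075 and 1959 against 188, 2657 and 1114. NEUROD4, a helix-loop-helix factor, and IMPG1, a matrix proteoglycan between photoreceptors, were lower in all 3 lines. Of the 32 genes 3 lay below every old line in all MYCN-T58A lines and 0 lay above. The share below is near that over all genes (7.83%) and is no result about the list. NEUROD4 had 394, 177 and 359 against 80.2, 100.4 and 94.2 (-1.67, limma adjusted p = 0.0812).

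**Figure D5:**
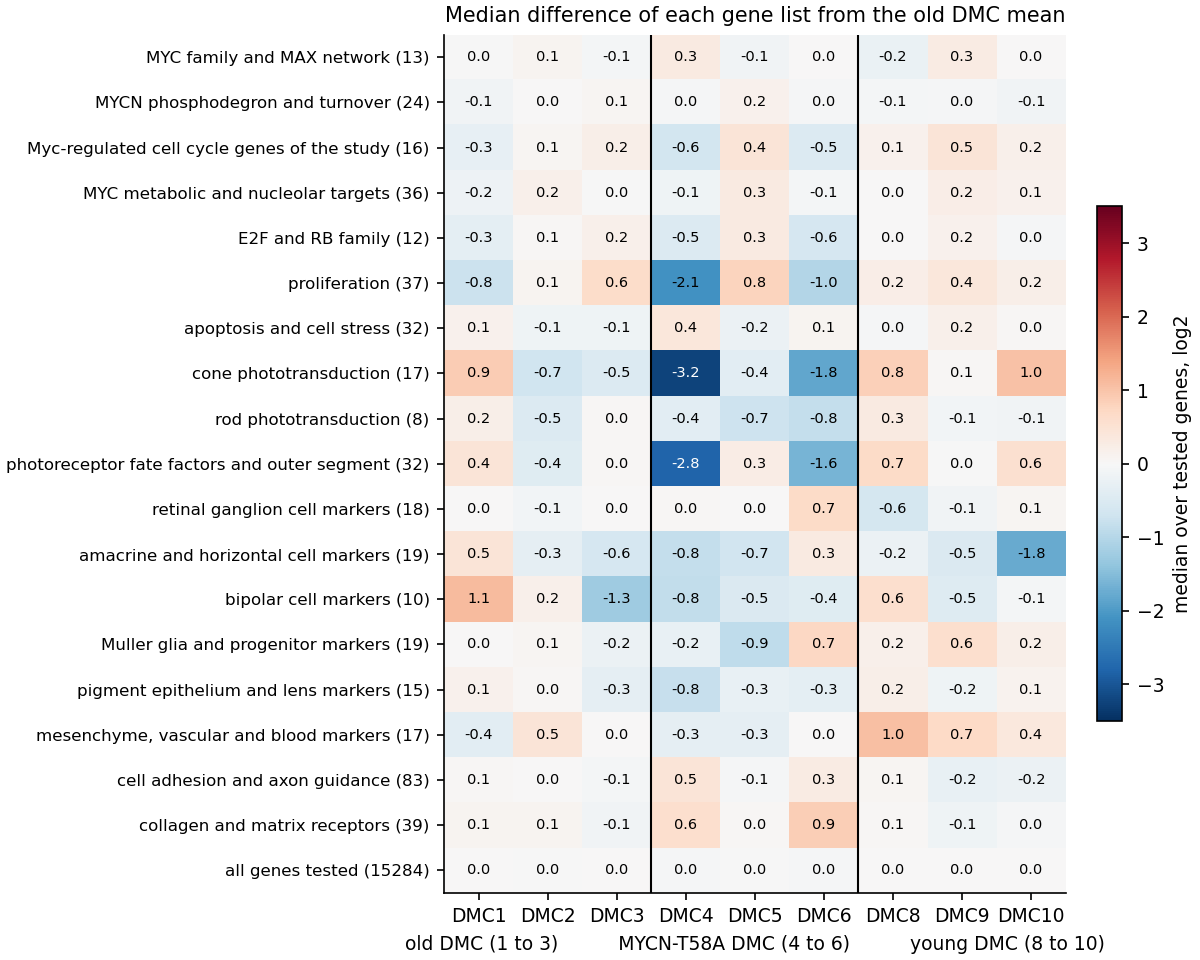
Median over the tested genes of each list (number in brackets) of the log2 difference from the old DMC mean, for the 6 compared lines and the young lines; red is higher and blue lower. The cone, photoreceptor fate and proliferation lists are lowest in DMC4 and DMC6, at -3.24 and -1.82 for cone genes, while DMC5 stands at -0.38 for cone genes and 0.79 for proliferation.

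Markers of ganglion, amacrine, horizontal, bipolar and glial cells had medians far below E14 retina in both groups, and together with pigment epithelium and lens genes they gave 0 DE genes over 3 lines (limma). Their unadjusted p was under 0.05 in 3 of 18 ganglion cell genes, 1 of 19 amacrine and horizontal, 2 of 10 bipolar, 2 of 19 Muller glia and progenitor and 3 of 15 pigment epithelium and lens genes. Without DMC5 the counts of higher and lower genes were 4 and 1, 2 and 1, 1 and 1, 2 and 2, and 2 and 1 in that order, where over all genes 7.81% were higher and 9.34% lower. The summed bipolar level was 937 to 1465 in the old lines and 967 to 2962 in the MYCN-T58A lines, and 44393 to 51643 in E14 retina. Sums of the other neuron lists lay nearer to retina. Ganglion cell genes summed to 7305 to 10669 in old lines, 8703 to 9855 in MYCN-T58A lines and 19263 to 21766 in retina. For amacrine and horizontal genes the sums were 10210 to 16175, 9908 to 25003 and 36291 to 39495. The ganglion cell factor POU4F2 was at 0 in the old lines and at 10.0, 2.39 and 3.45 in DMC4, DMC5 and DMC6, a few reads per library against 91.6 to 132 in retina. HES5, a target of Notch in progenitors, was lower in all 3 lines, with 107, 148 and 425 against 5.57, 70.5 and 0 (-4.61, limma adjusted p = 0.0990). PMEL, a pigment cell gene, had 72941, 56421 and 38825 against 27753, 23160.0 and 35489.7, and E14 retina was at 109 to 136.

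Markers of mesenchyme, vessels and blood, cells that a retinal culture could carry, summed to 2380 to 3492 in the old lines and 2548 to 3752 in the MYCN-T58A lines. Of 25 such genes 8 did not reach the filter, among them the fibroblast genes LUM, DCN and POSTN and the endothelial gene CDH5. Of the 17 tested 0 passed over 3 lines (limma, 4 with an unadjusted p under 0.05). Without DMC5 1 was higher and 1 lower, where over all genes 7.81% were higher and 9.34% lower, so that these counts are no result about the list. The higher one was ACTA2, an actin of smooth muscle, at 7.70, 16.9 and 6.57 against 366, 0 and 286.

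Adhesion and guidance genes and matrix genes, the longest lists, held members that were higher in DMC4 and DMC6. Of 83 adhesion and guidance genes 0 passed over 3 lines (limma, 13 with an unadjusted p under 0.05, median 0.17, or 0.11 with genes at or under 3 reads set to that floor), and 16 were higher and 6 lower without DMC5, where over all genes 7.81% were higher and 9.34% lower. Of the 83 genes 3 lay above every old line in all MYCN-T58A lines and 2 lay below, fewer than the 7.39% and 7.83% over all genes. SEMA5A, a guidance semaphorin, was 1 that did not overlap, at 58.7, 52.6 and 34.7 against 2018, 111 and 2717 (4.13, standard error 0.94, limma adjusted p = 0.0924). TENM4, a synaptic adhesion protein, had 20.2, 44.1 and 46.0 against 4029, 29.9 and 5176, and SLIT2, a ligand of ROBO1, 44.3, 11.3 and 16.0 against 2204, 21.5 and 1029, both with DMC5 at the level of the old lines. E14 retina expressed TENM4 at 1564 to 1727 and SLIT2 at 1383 to 1719. SEMA5B went the other way, at 1543, 3989 and 5125 against 97.0, 5219 and 712.

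Of 39 collagens and matrix receptors 0 passed over 3 lines (limma, 11 with an unadjusted p under 0.05, median 0.29). Without DMC5 9 were higher and 1 lower (median 0.61), where over all genes 7.81% were higher and 9.34% lower. Of the 39 genes 7 lay above every old line in all MYCN-T58A lines and 1 lay below, where over all genes 7.39% lay above and 7.83% below. DDR2, a collagen receptor kinase, was higher in all 3 lines, with 28.9, 93.9 and 16.9 against 498, 713 and 5082 (5.04, standard error 1.06, limma adjusted p = 0.0804). The basement membrane genes COL4A1 (232, 109.9 and 193 against 925, 299.9 and 2285), LAMC1 (1796, 2914 and 2467 against 7605, 3342 and 4675) and NID1 (2.89, 7.51 and 3.75 against 114, 14.3 and 172) did not overlap either, with DMC5 the lowest MYCN-T58A line in each. COL4A2 overlapped, at 814, 398 and 506 against 1964, 747 and 3137.

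Genes with the largest differences without DMC5 were chosen for their values and are given as a description. PDGFD, a growth factor of the PDGF family, had 1.93, 6.57 and 0 in the old lines and 5822, 3.58 and 1818 in DMC4, DMC5 and DMC6, and the chemokine CCL4 0.963, 5.63 and 0.939 against 2098, 5.97 and 620.1. The germ cell helicase DDX4 had 1.93, 2.82 and 2.82 against 1006, 4.78 and 411, and the zona pellucida domain gene CUZD1 24.1, 109 and 119 against 6299.7, 166 and 11474. CCL4 and DDX4 would not have reached the read filter without the MYCN-T58A lines, so that a difference was built into their passing. On the low side stood CFTR, a chloride channel, at 1219, 91.1 and 401 against 1.11, 449 and 5.74, and RBP4, the serum retinol carrier, at 219210.0, 112017 and 399045 against 2581, 699348 and 6826. In these 6 genes DMC5 was at or near the old lines, and in RBP4 it was the highest of the 6. The 6 genes are a selection from the largest differences. In others DMC5 lay on the side of DMC4 and DMC6, as in YLEC8 (DMC5 at 938) and in PCP4L1. PCP4L1 had 112, 273 and 175 in the old lines and 2.23, 41.8 and 2.30 in DMC4, DMC5 and DMC6.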

How the data were processed

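The deposited table holds signal values: the authors aligned read pairs to galGal6 with nf-core/rnaseq, counted them per gene with featureCounts 2.0.0, computed TMM factors with edgeR and divided the counts by them. All 205632 values above 0 were checked to be whole numbers divided by 1 of 12 constants equal to the TMM factors, but the constant changed from gene to gene within a column and matched the column's library in 8.36% of values, so reads were recovered and rescaled by library total and that library's TMM factor. Recovered reads per library range from 20984957 to 35088450, and no count test was run. Genes with at least 10 reads in 3 libraries (15284) were fitted as log2(normalized count + 1) with limma 3.58.1 (R 4.3.3) over 12 libraries in 4 groups, with the Benjamini-Hochberg adjustment. The fit was tested on simulated data, in 3 draws with 200 changed genes each. It called 72.5% of the changed genes, with up to 15 false calls in a draw. With no gene changed it made 2 calls. The changed genes were drawn only from those well above the read filter in the old lines. Every simulated library had the same spread, averaged over the 4 groups with the retinas included, and no line stood apart as DMC5 did. The share called in the simulation therefore does not carry over to the MYCN-T58A lines, and it does not tell how many real differences were missed. Figures and tables were made with Python 3.11.15. Names and chromosomes W and Z come from RefSeq for GRCg7b (14940 of 15416 identifiers matched); the strand setting of the counting is not given in the sources used here. The genes named are the largest DE genes, the top W genes, DE list members, fixed anchors of MYC, cell cycle and photoreceptors, and those next to the threshold; others were chosen after their values were seen. Members and lists were chosen with earlier results of these data known. Folds against groups at or under 3 reads per library are bounds at that floor, which covers counting error only. Alternatives were other scalings, pseudocounts, filters, weights and sample sets. Some items are not reported here.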

Additional observations from a re-analysis of the deposited data

How the results depend on the processing

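No paired analysis was possible because the old lines are numbered DMC1 to DMC3 and the MYCN-T58A lines DMC4 to DMC6, and nothing in the labels pairs them. The 6 DE genes (5 higher, 1 lower) stayed 6 with library totals, median-of-ratios factors, scaling without the transgenes and without W and Z genes. They became 105 (11 higher, 94 lower) with the deposited values as they stand, where the median of all genes moved to -0.31, 13 (9 and 4) with a pseudocount of 10, 10 (9 higher) with no filter beyond 1 read, 35 (3 and 32) in the 6 libraries alone and 0 (0 and 0) in the 9 DMC libraries, where 2135 genes had an unadjusted p under 0.05. The higher genes were 3 with at least 50 reads, 3 with 10 reads in 3 of the 6 libraries and 1 with array weights, and the lower genes 4 with array weights and 4 with a pseudocount of 0.1. With 1 library left out, DE genes ranged from 0 to 2620, higher from 0 to 1193 and lower from 0 to 1427. Without DMC1, DMC2 and DMC3 they numbered 1, 0 and 1, without DMC4 and DMC6 10 and 29, and without E14 retina 1 and 2 they were 3 and 2, and these fits assume that a group of 2 lines varies like the others. ENSGALG00000042449 and ENSGALG00000052376 passed in 21 of 26 alternatives, Y-LEC1 in 17 of 25, CCDC27 in 15, ENSGALG00000051054 in 14 and YLEC8 in 11 of 26. No named gene that was called in any fit changed its direction. The cause of the change without DMC5 was not tested. With 3 lines a group, differences smaller than the spread between lines were not detectable, and genes near the read filter are limited by depth as well.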
